A study of Homo sapiens and Mus musculus with 16 samples.

Results

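Aminoacyl-tRNA synthetases are the enzymes that attach each amino acid to its transfer RNA, and their messenger RNAs (mRNAs) were compared here between P-bodies and the cytoplasm. Members were taken by gene symbol: every symbol of the form XARS with an optional final digit, A or B, plus EPRS1 and the 3 scaffold proteins of the multisynthetase complex, AIMP1, AIMP2 and EEF1E1. This gave 41 of the 22286 genes in the human count table and 40 of the 15881 genes in the mouse table, where symbols were matched ignoring case. The human set held 21 cytosolic enzyme genes, 17 mitochondrial enzyme genes, whose symbols end in 2, and 3 scaffold genes. The mouse set lacked an ortholog of TARS3, and several mouse genes carry older symbols (Tars for TARS1). Every member was counted in at least 1 library of each cell type and entered the tests.

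P-body-seq sorts GFP-LSM14A particles from lysed cells by fluorescence, and their RNA is sequenced alongside RNA of the cytoplasmic material that entered the sorter. The 16 libraries covered 4 cell types with 2 P-body and 2 cytoplasm libraries each, and in all of them the P-body protein LSM14A was fused to GFP. HEK293T is a human embryonic kidney line and mESC are mouse embryonic stem cells labelled as line KH2 in serum-LIF. Per the study's methods these carried the fusion on a lentiviral vector. The liver bud progenitors and the neurons, at day 20 of differentiation, came from UCLA4, a line of human embryonic stem cells, with the fusion at the AAVS1 locus. HEK293T and mESC libraries were made from total RNA with random primers (Snap seq), and the others from polyA RNA (V4 Ultra with Nextera XT), so cell type and library chemistry cannot be told apart between these pairs. Liver bud progenitors and neurons share line and chemistry, and only that pair was compared directly.

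P-bodies are membraneless cytoplasmic condensates of mRNAs and proteins, among them LSM14A and the helicase DDX6, that hold mRNAs which are being translated poorly or not at all. Each synthetase recognises its amino acid and the matching tRNAs, and most amino acids have a separate nuclear gene for the cytosolic and for the mitochondrial enzyme. KARS1 and GARS1 serve both compartments, and mitochondrial glutamine tRNA is charged by another route. In the cytosol several synthetases sit with AIMP1, AIMP2 and EEF1E1 in a single multisynthetase complex.

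Library totals ranged from 6368953 to 17972284 counts, so a floor of 3 counts corresponded to 0.167 to 0.471 CPM, a count scaled to a fixed library total. The CPM values of genes are scaled with TMM factors within each cell type. The neuron P-body pair differed most: the mean chi-square between replicates was 28.1 per gene, against 2.21 to 7.14 in the other 7 pairs. Ribosomal RNA genes took 3.09% to 13.4% of counts in P-body libraries and 9.63% to 24.9% in cytoplasm libraries, and less in P-bodies within every cell type. The 8 neuron markers summed to 8727 to 12614 CPM in neuron libraries and to at most 380.2 CPM elsewhere. In liver bud progenitors the 8 hepatic endoderm markers summed to 206 to 401 CPM, and ALB was at 0 in both cytoplasm libraries. The hepatic sum was at most 135 CPM in HEK293T (7 markers) and at most 9.16 CPM in neurons. In mESC it was 401 to 597 CPM over 5 markers, so this sum does not single out liver bud progenitors. In liver bud progenitors 5 neural progenitor markers summed to 591 to 1029 CPM, and the 6 pluripotency markers still summed to 255 to 414 CPM. In mESC the pluripotency markers summed to 2212 to 2638 CPM.

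The synthetase genes were spread over both fractions rather than moving as a block. In HEK293T, 9 of 41 members were enriched in P-bodies and 22 were depleted, at an edgeR adjusted p under 0.05 over all genes. Of all genes tested, 19.3% were enriched and 22.8% depleted. In liver bud progenitors 15 were enriched and 8 depleted, against 21.4% and 17.1% of all genes. In neurons 6 were enriched and 9 depleted, against 14.6% and 14.1% of all genes. In mESC 6 of 40 were enriched and 13 depleted, against 25.8% and 20.6% of all genes. As shares of the members these are 22.0% and 53.7% in HEK293T, 36.6% and 19.5% in liver bud progenitors, 14.6% and 22.0% in neurons, and 15.0% and 32.5% in mESC. Calls depend on level, so the same was counted at a mean CPM of 20 or more. There, 9 of 30 members (30.0%) were enriched in HEK293T where 50.9% of genes were, and 5 of 24 (20.8%) in mESC where 54.1% of genes were. The depleted members were 46.7% against 34.0% of genes in HEK293T and 12 of 24 against 25.0% in mESC. In the polyA libraries the shares lay near those of genes at this level: 54.2% enriched against 53.4% in liver bud progenitors, and 28.6% against 31.1% in neurons.

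The median log2 difference between P-body and cytoplasm over the members was -0.30 in HEK293T, -0.17 in mESC, -0.18 in neurons and 0.16 in liver bud progenitors. Over all genes tested it was -0.0072 in HEK293T, -0.11 in mESC, 0.19 in neurons and -0.092 in liver bud progenitors. The SD of the members' differences was 0.689, 0.467, 0.729 and 0.631 on the log2 scale, and their median standard error (SE) 0.107, 0.0981, 0.248 and 0.141, in the same order of cell types. Splits of enriched against depleted members moved with the scaling: with library totals alone they were 3 against 28 in mESC, 7 against 6 in neurons and 10 against 15 in liver bud progenitors. That scaling shifted the all-gene median by -0.40 in mESC, 0.17 in neurons, -0.18 in liver bud progenitors and -0.13 in HEK293T. In neurons, leaving out P-body replicate 1 or 2 raised the depleted count from 9 to 16 or 15, and leaving out cytoplasm replicate 1 or 2 gave 6 or 5.

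**Figure D1:**
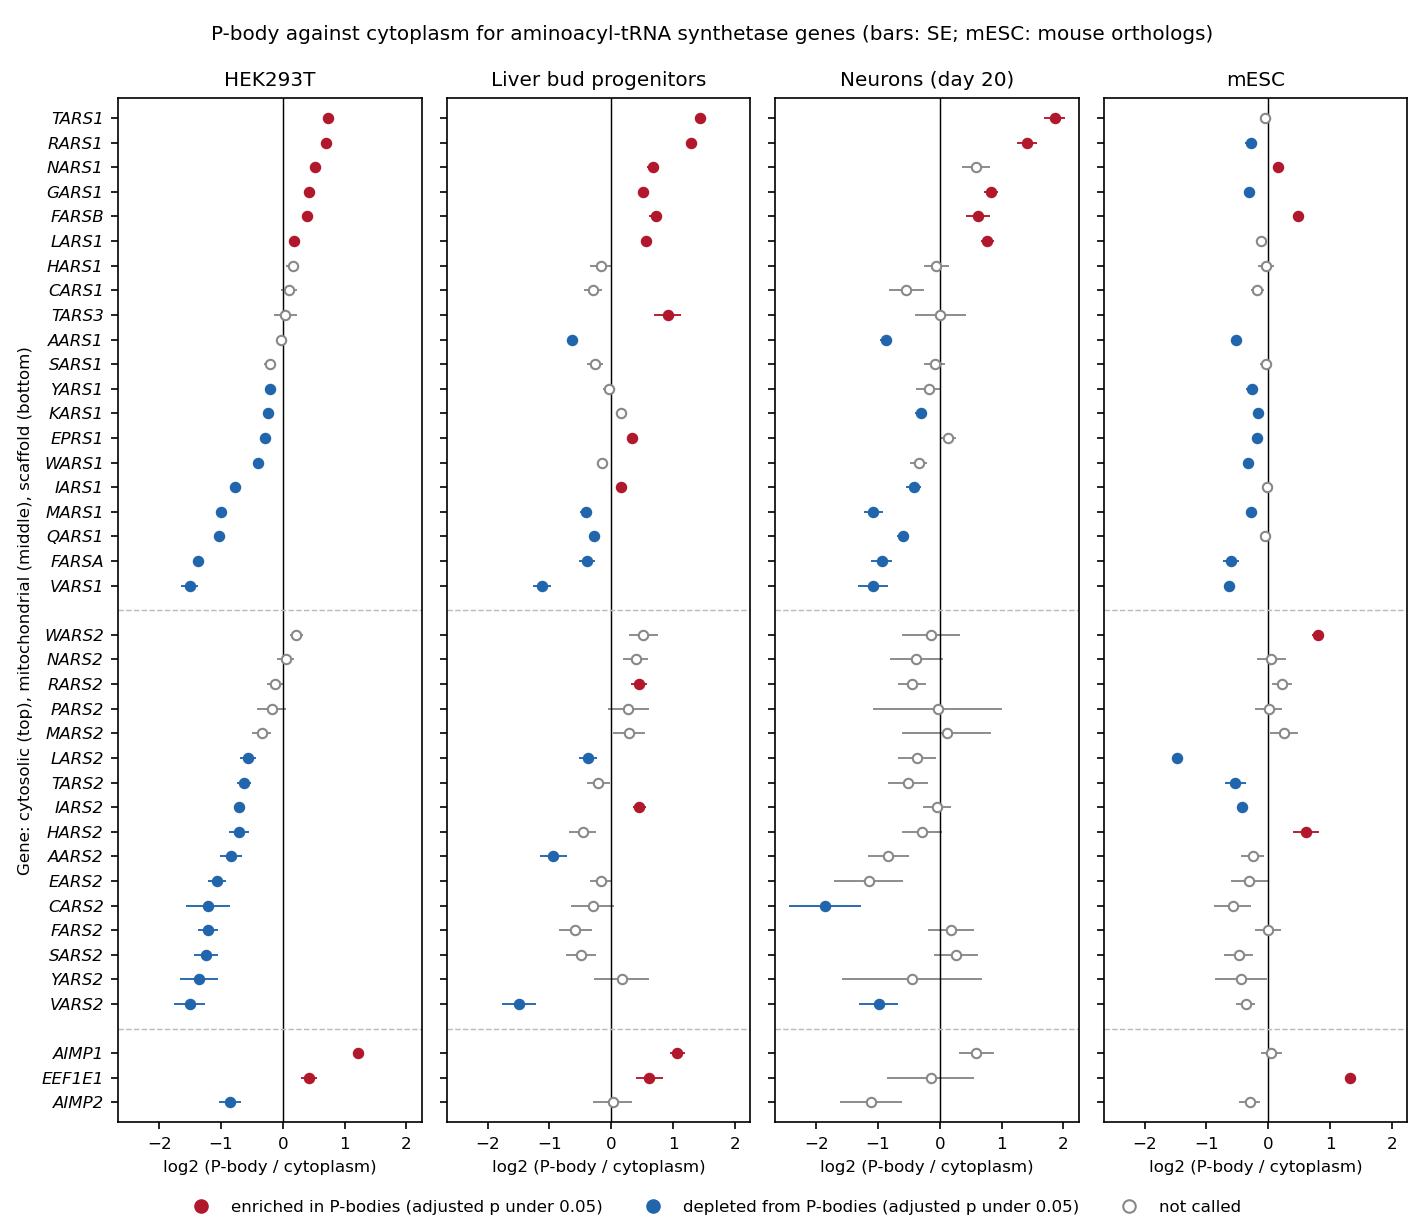
The log2 difference between P-body and cytoplasm (x axis) for members (rows) in 4 cell types, with bars for the SE; filled red points are enriched, filled blue points depleted and open points not called. Cytosolic enzymes spread to both sides of 0 in the human cells, and the mitochondrial enzymes of HEK293T lie almost wholly to the left.

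Across the 3 human cell types, 6 members were enriched in each, all cytosolic, among them TARS1, RARS1, LARS1, GARS1 and FARSB. VARS1, MARS1, QARS1, FARSA and the mitochondrial VARS2 were depleted in each. These are 14.6% and 12.2% of the members, where 8.44% and 5.77% of the 21461 genes tested in all 3 cell types had such a pattern. FARSB was enriched in mESC too, and FARSA, MARS1 and VARS1 were depleted in all 4 cell types. No call was made in any cell type for CARS1, HARS1, MARS2, NARS2, PARS2 or SARS1.

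FARSA and FARSB encode the 2 subunits of a single enzyme, cytosolic phenylalanyl-tRNA synthetase, in which alpha and beta chains pair in equal number. Their mRNAs lay on opposite sides in every cell type. In HEK293T, FARSA stood at 65.6 and 56.5 CPM in the P-body libraries and 154 and 162 CPM in the cytoplasm libraries. FARSB stood at 111 and 113 CPM in P-bodies against 82.4 and 88.9 CPM in cytoplasm in the same cells. The fractions did not overlap for either gene, with FARSA low and FARSB high in P-bodies. The log2 difference was -1.38 (SE 0.077, adjusted p = 1.1e-23) for FARSA and 0.38 (SE 0.075, adjusted p = 1.54e-05) for FARSB (edgeR quasi-likelihood test, as for every adjusted p below, unless another tool is named).

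FARSA in liver bud progenitors stood at 28.7 and 28.7 CPM in P-bodies against 33.4 and 41.6 CPM in cytoplasm, a difference of -0.39 (SE 0.13, adjusted p = 0.0104), and FARSB at 63.3 and 67.5 CPM in P-bodies against 40.3 and 39.3 CPM in cytoplasm, a difference of 0.72 (SE 0.10, adjusted p = 1.63e-08). In neurons FARSA stood at 24.8 and 29.6 CPM in P-bodies against 52.2 and 52.2 CPM in cytoplasm, a difference of -0.94 (SE 0.17, adjusted p = 0.00099), and FARSB at 32.9 and 38.4 CPM in P-bodies against 21.4 and 25.1 CPM in cytoplasm, a difference of 0.62 (SE 0.20, adjusted p = 0.0341). In mESC Farsa stood at 17.8 and 18.8 CPM in P-bodies against 27.1 and 28.4 CPM in cytoplasm, a difference of -0.60 (SE 0.13, adjusted p = 0.000482), and Farsb at 99.3 and 99.99 CPM in P-bodies against 72.5 and 70.3 CPM in cytoplasm, a difference of 0.48 (SE 0.068, adjusted p = 2.11e-06). No pair of fractions overlapped in these 3 cell types either. FARSA in liver bud progenitors was not called with DESeq2 (DESeq2 adjusted p = 0.0866) or without cytoplasm replicate 2 (adjusted p = 0.242). FARSB in neurons was not called without cytoplasm replicate 1 or 2 (adjusted p = 0.343 and 0.124), nor Farsb in mESC with library totals alone (adjusted p = 0.338). In the mouse annotation 11.3% of the exon bases of Farsb lie across Sgpp2 on the opposite strand.

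The ratio of the 2 subunits' reads within a library needs no scaling between libraries. In HEK293T there were 1.69 and 2.001 FARSB reads per FARSA read in the P-body libraries and 0.535 and 0.549 in the cytoplasm libraries. The ratio was 2.20 and 2.35 against 1.21 and 0.945 in liver bud progenitors, 1.32 and 1.30 against 0.410 and 0.481 in neurons, and 5.58 and 5.33 against 2.67 and 2.48 in mESC. In each cell type both P-body libraries lay above both cytoplasm libraries.

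Some genes that lay on opposite sides have coding sequences that differ in base composition at the third codon position, where most changes leave the protein as it is. For this reason the first 150 coding bases are given for 3 depleted and 3 enriched genes, from the hg38 genome with GENCODE 44 transcripts, 5′ to 3′ from the start codon, with the third base of each codon in capitals. FARSA lies at chr19:12922479-12934037, minus strand, FARSB at chr2:222566899-222656092, minus strand, VARS1 at chr6:31777518-31795752, minus strand, MARS1 at chr12:57475445-57517569, plus strand, TARS1 at chr5:33440696-33468091, plus strand and RARS1 at chr5:168486451-168519301, plus strand. All the bases shown are coding exon sequence.
FARSA: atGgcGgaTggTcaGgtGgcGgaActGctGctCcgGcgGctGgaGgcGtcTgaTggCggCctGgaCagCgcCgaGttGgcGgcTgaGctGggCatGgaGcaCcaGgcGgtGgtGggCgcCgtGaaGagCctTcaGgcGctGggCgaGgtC
FARSB: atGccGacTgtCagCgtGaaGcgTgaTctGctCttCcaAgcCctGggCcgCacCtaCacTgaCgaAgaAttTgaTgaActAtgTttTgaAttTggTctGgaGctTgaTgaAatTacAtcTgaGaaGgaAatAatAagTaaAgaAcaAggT
VARS1: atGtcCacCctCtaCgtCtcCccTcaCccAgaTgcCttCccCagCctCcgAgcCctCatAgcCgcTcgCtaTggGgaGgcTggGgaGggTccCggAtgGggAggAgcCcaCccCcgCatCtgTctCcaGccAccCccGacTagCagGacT
MARS1: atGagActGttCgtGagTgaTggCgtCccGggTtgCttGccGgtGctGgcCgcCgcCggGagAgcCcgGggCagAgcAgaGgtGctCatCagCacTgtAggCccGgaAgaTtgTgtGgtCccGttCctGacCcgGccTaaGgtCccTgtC
TARS1: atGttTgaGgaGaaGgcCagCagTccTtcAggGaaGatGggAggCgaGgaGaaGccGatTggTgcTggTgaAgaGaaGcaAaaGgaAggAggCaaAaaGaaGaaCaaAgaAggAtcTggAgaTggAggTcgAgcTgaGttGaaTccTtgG
RARS1: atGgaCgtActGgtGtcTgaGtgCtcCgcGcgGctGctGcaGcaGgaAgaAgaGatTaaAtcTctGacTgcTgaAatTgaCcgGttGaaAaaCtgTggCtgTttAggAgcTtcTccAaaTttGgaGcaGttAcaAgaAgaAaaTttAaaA
In these windows 43 of 50 capitals are G or C in FARSA, 36 in MARS1 and 34 in VARS1, all depleted from P-bodies, and 20 in FARSB, 23 in RARS1 and 24 in TARS1, all enriched in the human cells. Over the whole coding sequence the share of G or C at the third codon position was 81.1% in FARSA and 37.7% in FARSB. It was 71.9% in VARS1, 61.0% in MARS1, 43.0% in TARS1 and 39.1% in RARS1. The median of all human protein-coding genes counted was 60.4%, so MARS1 lay near it.

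**Figure D2:**
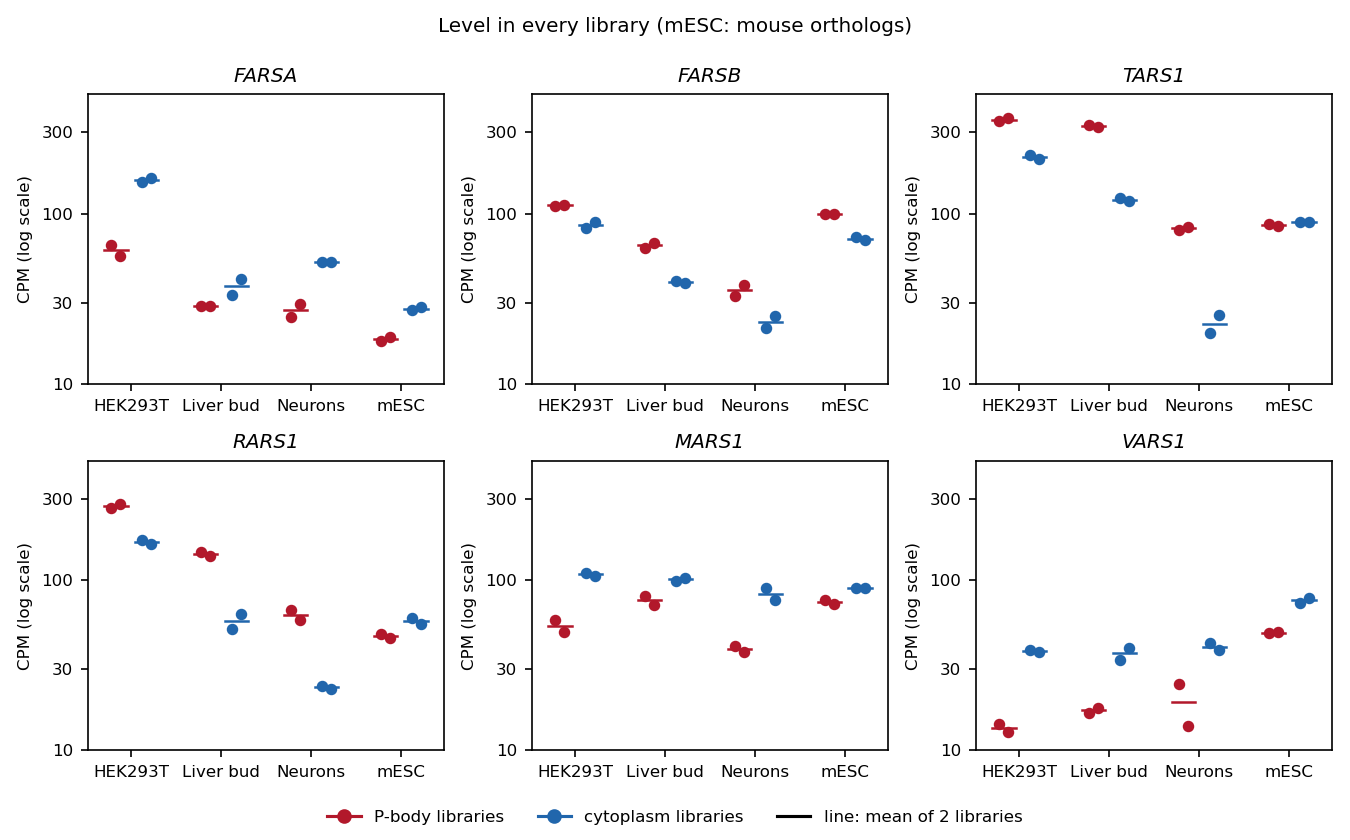
CPM on a log axis in every library for 6 members, with red points for P-body libraries, blue points for cytoplasm libraries and lines at the mean of 2. FARSA, MARS1 and VARS1 lie lower in P-bodies in all 4 cell types, FARSB lies higher in all 4, and TARS1 and RARS1 lie higher in the human cells only.

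TARS1, the cytosolic threonyl-tRNA synthetase, had the largest P-body enrichment of the members in liver bud progenitors and neurons and the second largest in HEK293T. It stood at 349.8 and 362 CPM in the P-body libraries and 219.8 and 208 CPM in the cytoplasm libraries of HEK293T. Liver bud progenitors held 329.6 and 321 CPM in P-bodies against 123 and 119 CPM in cytoplasm, and in neurons 80.1 and 84.0 CPM in P-bodies against 20.0 and 25.3 CPM in cytoplasm. The P-body libraries were the high ones in each, with no overlap. The log2 difference was 0.73 (SE 0.059, adjusted p = 7.58e-17) in HEK293T, 1.43 (SE 0.067, adjusted p = 1.63e-28) in liver bud progenitors and 1.86 (SE 0.16, adjusted p = 2.3e-06) in neurons, the last a 3.62-fold higher level in P-bodies. In mESC Tars stood at 86.4 and 84.5 CPM in P-bodies against 88.9 and 89.0 CPM in cytoplasm, a difference of -0.058 (adjusted p = 0.508).

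RARS1, the cytosolic arginyl-tRNA synthetase, followed it closely. Its HEK293T levels were 265 and 277 CPM in P-bodies against 172 and 163 CPM in cytoplasm, those of liver bud progenitors 145 and 138 CPM in P-bodies against 51.8 and 63.0 CPM in cytoplasm, and neurons 66.3 and 58.2 CPM in P-bodies against 23.9 and 22.9 CPM in cytoplasm. Again no fractions overlapped, and the differences were 0.70 (SE 0.061, adjusted p = 3.33e-15), 1.29 (SE 0.086, adjusted p = 3.73e-21) and 1.41 (SE 0.16, adjusted p = 2.54e-05). Mouse Rars went the other way, with 48.2 and 45.8 CPM in P-bodies against 59.5 and 54.8 CPM in cytoplasm and a difference of -0.28 (SE 0.086, adjusted p = 0.00977). That depletion was not called with DESeq2 (DESeq2 adjusted p = 0.0791), without P-body replicate 2 (adjusted p = 0.12) or without cytoplasm replicate 1 (adjusted p = 0.0779).

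GARS1 and LARS1 were enriched in all 3 human cell types as well, and NARS1 in 2 of them. GARS1, which charges glycine tRNA in both compartments, held 362 and 352 CPM in P-bodies against 272 and 262 CPM in cytoplasm in HEK293T, 283 and 260.4 CPM in P-bodies against 189 and 191 CPM in cytoplasm in liver bud progenitors and 134 and 126 CPM in P-bodies against 70.1 and 77.1 CPM in cytoplasm in neurons. The differences were 0.42 (SE 0.057, adjusted p = 5.01e-09), 0.52 (SE 0.066, adjusted p = 4.72e-10) and 0.83 (SE 0.12, adjusted p = 0.000132), all without overlap of the fractions. Mouse Gars was depleted, with 179 and 177 CPM in P-bodies against 228 and 215 CPM in cytoplasm and a difference of -0.31 (SE 0.051, adjusted p = 1.4e-05).

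LARS1, the leucyl-tRNA synthetase that also senses leucine for mTORC1, held 202 and 204 CPM in P-bodies against 185 and 174 CPM in cytoplasm in HEK293T, 292.9 and 312 CPM in P-bodies against 200.001 and 209 CPM in cytoplasm in liver bud progenitors and 170.0 and 179 CPM in P-bodies against 99.1 and 106 CPM in cytoplasm in neurons. The fractions were apart in each, though by little in HEK293T, and the differences were 0.18 (SE 0.063, adjusted p = 0.0161), 0.56 (SE 0.064, adjusted p = 1.3e-11) and 0.77 (SE 0.11, adjusted p = 9.91e-05). The HEK293T call ended without P-body replicate 1 or 2 or without cytoplasm replicate 2 (adjusted p = 0.0863, 0.136 and 0.101) and with library totals alone (adjusted p = 0.605). NARS1, the asparaginyl-tRNA synthetase, was enriched at 0.52 (SE 0.075, adjusted p = 2.25e-08) in HEK293T and 0.67 (SE 0.10, adjusted p = 9.37e-08) in liver bud progenitors. In neurons its difference was 0.59 (adjusted p = 0.0811). Nars in mESC was called at 0.16 (SE 0.057, adjusted p = 0.0243), but with library totals alone its difference was -0.24 (adjusted p = 0.000695), and it was not called with DESeq2 (DESeq2 adjusted p = 0.16), without P-body replicate 1 or without cytoplasm replicate 1 (adjusted p = 0.118 and 0.0977). TARS3, another cytosolic threonyl-tRNA synthetase, was called in liver bud progenitors and in neither of the other human cell types, with 15.1 and 14.1 CPM in P-bodies against 5.86 and 9.49 CPM in cytoplasm and a difference of 0.91 (SE 0.22, adjusted p = 0.000478). Without cytoplasm replicate 1 its adjusted p was 0.0547.

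On the depleted side VARS1, the cytosolic valyl-tRNA synthetase, had the largest depletion of the cytosolic enzymes in each of the 4 cell types. It stood at 14.3 and 12.9 CPM in the P-body libraries and 39.0 and 38.0 CPM in the cytoplasm libraries of HEK293T. Liver bud progenitors held 16.5 and 17.8 CPM in P-bodies against 34.1 and 40.1 CPM in cytoplasm, neurons 24.5 and 13.9 CPM in P-bodies against 42.4 and 38.8 CPM in cytoplasm, and mESC, as Vars, 48.9 and 49.1 CPM in P-bodies against 73.3 and 78.2 CPM in cytoplasm. The cytoplasm libraries were the high ones everywhere, without overlap. The differences were -1.50 (SE 0.13, adjusted p = 3.72e-15), -1.12 (SE 0.14, adjusted p = 6.77e-10), -1.08 (SE 0.25, adjusted p = 0.00495) and -0.63 (SE 0.079, adjusted p = 3.3e-07).

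MARS1, the methionyl-tRNA synthetase that charges initiator as well as elongator tRNA, held 57.9 and 49.8 CPM in P-bodies against 110.4 and 105 CPM in cytoplasm in HEK293T, 76.5 and 72.0 CPM in P-bodies against 90.0 and 90.2 CPM in cytoplasm in mESC, 41.2 and 37.6 CPM in P-bodies against 89.7 and 75.9 CPM in cytoplasm in neurons and 80.4 and 71.4 CPM in P-bodies against 99.1 and 103 CPM in cytoplasm in liver bud progenitors. All 4 pairs of fractions were apart, with differences of -1.001 (SE 0.084, adjusted p = 4.15e-16) in HEK293T, -0.28 (SE 0.070, adjusted p = 0.00203) in mESC, -1.07 (SE 0.15, adjusted p = 0.000108) in neurons and -0.41 (SE 0.085, adjusted p = 3.49e-05) in liver bud progenitors. The human MARS1 and DDIT3 annotations share 65 exon bases on opposite strands. In mESC the adjusted p was 0.0601 without P-body replicate 2. QARS1, the glutaminyl-tRNA synthetase, held 95.2 and 90.6 CPM in P-bodies against 187 and 193 CPM in cytoplasm in HEK293T, 171 and 159 CPM in P-bodies against 209 and 193 CPM in cytoplasm in liver bud progenitors and 206 and 184 CPM in P-bodies against 311 and 279 CPM in cytoplasm in neurons. It was low in P-bodies in all 3, with differences of -1.03 (SE 0.068, adjusted p = 2.46e-20), -0.28 (SE 0.070, adjusted p = 0.000549) and -0.60 (SE 0.10, adjusted p = 0.000482), while in mESC the difference was -0.050 (adjusted p = 0.547).

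AARS1, the alanyl-tRNA synthetase, held 160.5 and 167 CPM in P-bodies against 240.4 and 265 CPM in cytoplasm in liver bud progenitors, 128 and 119 CPM in P-bodies against 219.5 and 229.8 CPM in cytoplasm in neurons and, as Aars, 305 and 299 CPM in P-bodies against 430.0 and 442 CPM in cytoplasm in mESC. It was depleted without overlap in these 3, at -0.63 (SE 0.068, adjusted p = 2.12e-12), -0.86 (SE 0.10, adjusted p = 2.15e-05) and -0.53 (SE 0.042, adjusted p = 1.27e-10). In HEK293T the fractions overlapped, at 219 and 222 CPM in P-bodies against 218 and 233 CPM in cytoplasm, with a difference of -0.036 (adjusted p = 0.707). In the annotation, 23.1% of the exon bases of mouse Aars also belong to Exosc6 on the same strand. WARS1, the tryptophanyl-tRNA synthetase, was depleted in HEK293T at -0.41 (SE 0.065, adjusted p = 2.79e-07) and in mESC at -0.33 (SE 0.083, adjusted p = 0.00225). YARS1, the tyrosyl-tRNA synthetase, was called depleted in HEK293T (-0.21) and mESC (-0.26), but neither call held with DESeq2 (DESeq2 adjusted p = 0.234 and 0.16), and each ended without either of at least 2 single libraries. SARS1, CARS1 and HARS1, for serine, cysteine and histidine, were not called anywhere, with differences between -0.54 and 0.16.

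The 11 members of the multisynthetase complex divided between the fractions. In HEK293T every complex member was called, 5 enriched (AIMP1, RARS1 and LARS1 among them) and 6 depleted (QARS1, MARS1 and IARS1 among them). In liver bud progenitors 7 were enriched and 2 depleted, in neurons 3 and 4, and in mESC 2 and 4. As shares enriched and depleted, these were 45.5% and 54.5% in HEK293T, against 19.3% and 22.8% of all genes. They were 63.6% and 18.2% in liver bud progenitors, against 21.4% and 17.1%. In neurons they were 27.3% and 36.4%, against 14.6% and 14.1%. In mESC they were 18.2% and 36.4%, against 25.8% and 20.6%. Calls depend on level. Of genes whose mean CPM was 20 or more, 50.9% were enriched and 34.0% depleted in HEK293T, and 53.4% and 27.4% in liver bud progenitors. In neurons these were 31.1% and 37.4%, and in mESC 54.1% and 25.0%. Beside these, the enriched share of the complex was lower in HEK293T, neurons and mESC, and higher in liver bud progenitors. Its depleted share was higher in HEK293T and mESC only. The complex was not cut at that level. The median difference over the complex was -0.24 in HEK293T, -0.12 in mESC, -0.15 in neurons and 0.34 in liver bud progenitors. The 13 cytosolic enzymes outside it had medians of 0.040 in HEK293T, -0.14 in liver bud progenitors and -0.080 in neurons, and the 12 of the mouse -0.22.

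AIMP1, the scaffold that binds RARS1 and whose cleaved form is the cytokine EMAP II, had the largest enrichment of all members in HEK293T. It stood at 133 and 159 CPM in the P-body libraries and 63.6 and 62.8 CPM in the cytoplasm libraries of these cells and at 52.8 and 49.3 CPM in P-bodies against 24.6 and 24.0 CPM in cytoplasm in liver bud progenitors. The P-body libraries were the high ones by more than the spread of replicates, with differences of 1.21 (SE 0.079, adjusted p = 1.28e-20) and 1.07 (SE 0.12, adjusted p = 1.14e-11). In neurons its values were 16.0 and 22.5 CPM in P-bodies against 14.3 and 11.3 CPM in cytoplasm, a difference of 0.59 (adjusted p = 0.132). Mouse Aimp1 stood at 0.052 (adjusted p = 0.821). Of the exon bases of human AIMP1, 5.25% lie across TBCK on the opposite strand. EEF1E1, also known as AIMP3, was most enriched in mESC, where Eef1e1 held 256 and 243 CPM in P-bodies against 96.9 and 102 CPM in cytoplasm and a difference of 1.33 (SE 0.055, adjusted p = 4.02e-16). In HEK293T and liver bud progenitors it was called at 0.42 (SE 0.13, adjusted p = 0.00408) and 0.62 (SE 0.22, adjusted p = 0.0212), and both calls ended with library totals alone (adjusted p = 0.0553 and 0.118), in HEK293T without P-body replicate 2 (adjusted p = 0.0969), and in liver bud progenitors with DESeq2 (DESeq2 adjusted p = 0.181) and without P-body or cytoplasm replicate 2 (adjusted p = 0.0687 and 0.589). In the human annotation 27.3% of its exon bases also belong to the readthrough gene EEF1E1-BLOC1S5. AIMP2, the scaffold that holds the complex together, was depleted in HEK293T, with 8.98 and 7.66 CPM in P-bodies against 14.3 and 15.7 CPM in cytoplasm and a difference of -0.85 (SE 0.18, adjusted p = 3.5e-05). With all human libraries in a fit its adjusted p was 0.0634. Of its exon bases 38.9% lie across EIF2AK1 on the opposite strand, and the use of strand in counting is not given in the sources used here.

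EPRS1, the bifunctional glutamyl-prolyl-tRNA synthetase, was depleted in HEK293T, with 214 and 218 CPM in P-bodies against 272 and 258 CPM in cytoplasm and a difference of -0.30 (SE 0.060, adjusted p = 2.64e-05). It was enriched in liver bud progenitors, with 205 and 208 CPM in P-bodies against 163 and 164 CPM in cytoplasm and a difference of 0.34 (SE 0.068, adjusted p = 2.98e-05). The enrichment ended with library totals alone (0.15, adjusted p = 0.0868), and the depletion in HEK293T with all human libraries in a fit (adjusted p = 0.1). Mouse Eprs was depleted in mESC at -0.18 (SE 0.039, adjusted p = 0.000527), a call that held under every alternative. IARS1, the isoleucyl-tRNA synthetase, held 295 and 299 CPM in P-bodies against 499 and 523 CPM in cytoplasm in HEK293T, 349.6 and 338 CPM in P-bodies against 321 and 292.7 CPM in cytoplasm in liver bud progenitors and 91.1 and 82.4 CPM in P-bodies against 107 and 125 CPM in cytoplasm in neurons. It was low in P-bodies of HEK293T and neurons, at -0.78 (SE 0.055, adjusted p = 4.87e-19) and -0.42 (SE 0.12, adjusted p = 0.022), and called slightly high in liver bud progenitors, at 0.16 (SE 0.061, adjusted p = 0.0244). That last call was lost with DESeq2 (DESeq2 adjusted p = 0.136), without P-body replicate 1 or 2 and without cytoplasm replicate 2 (adjusted p = 0.21, 0.0718 and 0.562), and with library totals alone the difference was -0.022. The neuron call was lost with DESeq2 (DESeq2 adjusted p = 0.0601) and without cytoplasm replicate 2 (adjusted p = 0.271). KARS1, the lysyl-tRNA synthetase of both compartments, was called depleted at -0.24 (SE 0.060, adjusted p = 0.000645) in HEK293T, -0.31 (SE 0.10, adjusted p = 0.0334) in neurons and -0.17 (SE 0.049, adjusted p = 0.006) in mESC. In HEK293T and neurons the call ended with DESeq2 (DESeq2 adjusted p = 0.0803 and 0.101). Each of the 3 ended without at least 1 library: without P-body replicate 1 in HEK293T (adjusted p = 0.141), without cytoplasm replicate 1 or 2 in neurons (adjusted p = 0.145 and 0.223) and without P-body replicate 2 in mESC (adjusted p = 0.0799).

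The mitochondrial enzymes charge the tRNAs that read the few mRNAs of the mitochondrial genome, and their own mRNAs come from the nucleus. In HEK293T, where 22.8% of all genes were depleted and 19.3% enriched, 12 of 17 (70.6%) were depleted from P-bodies and 0 enriched by edgeR. None was enriched at an unadjusted p under 0.05 either, and DESeq2 called 11 depleted and 0 enriched. The median difference was -0.71, between -1.51 for VARS2 and 0.22 for WARS2. Among the 21 cytosolic enzymes 9 were depleted, 7 enriched, and the median was -0.036. The cytosolic median lay on either side of 0 with the scaling (between -0.17 and 0.090 over the alternatives), and the mitochondrial median stayed between -0.84 and -0.58. Summed over the 17 genes, the mitochondrial enzymes held 306 and 292 CPM in the P-body libraries and 446 and 458 CPM in the cytoplasm libraries of HEK293T, and the cytosolic enzymes 3367 and 3409 CPM in the P-body libraries and 3578 and 3578 CPM in the cytoplasm libraries.

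The counts were lower in the other cells. Of the 17, 3 were depleted and 3 enriched in liver bud progenitors, 2 and 0 in neurons, and 3 and 2 in mESC. The depleted shares were 17.6%, 11.8% and 17.6%, near the 17.1%, 14.1% and 20.6% of all genes. The enriched shares were 17.6%, 0% and 11.8%, against 21.4%, 14.6% and 25.8%. In neurons 3 and 0 passed an unadjusted p under 0.05, and DESeq2 called none in either direction. The medians were -0.17, -0.36 and -0.25, against 0.16, -0.080 and -0.17 for the cytosolic enzymes. With library totals alone the cytosolic medians of liver bud progenitors and neurons changed sign, to -0.025 and 0.092. Whether the HEK293T values differ from those of the other cells was not tested, since cell type and chemistry cannot be told apart. These genes were also low. In neurons P-body replicates 1 and 2 held 14 and 78 counts of EARS2, 11 and 58 of MARS2, and 37 and 1 of PARS2, for glutamate, methionine and proline. That pair of libraries also differed most over all genes, with a mean chi-square of 28.1 per gene. The cause of the spread was not tested.

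VARS2, the mitochondrial valyl-tRNA synthetase, was depleted in all 3 human cell types, as was its cytosolic counterpart VARS1. It held 2.54 and 2.79 CPM in P-bodies against 8.36 and 6.81 CPM in cytoplasm in HEK293T, 3.81 and 3.31 CPM in P-bodies against 10.2 and 9.87 CPM in cytoplasm in liver bud progenitors and 9.49 and 6.33 CPM in P-bodies against 16.0 and 15.4 CPM in cytoplasm in neurons. The cytoplasm was the high side without overlap in each, at -1.51 (SE 0.25, adjusted p = 6.15e-07), -1.49 (SE 0.28, adjusted p = 7.06e-06) and -0.99 (SE 0.31, adjusted p = 0.0307). The neuron call ended with DESeq2 (DESeq2 adjusted p = 0.0779) and without cytoplasm replicate 1 or 2 (adjusted p = 0.223 and 0.171). FARS2, the single-chain mitochondrial phenylalanyl-tRNA synthetase, was depleted in HEK293T, with 7.89 and 9.63 CPM in P-bodies against 19.5 and 21.3 CPM in cytoplasm and a difference of -1.21 (SE 0.17, adjusted p = 5.01e-09), and not called elsewhere. SARS2, YARS2, EARS2 and AARS2 fell by similar amounts in HEK293T, with differences of -1.24, -1.35, -1.06 and -0.83. CARS2, for cysteine, was depleted in HEK293T at -1.20 (SE 0.36, adjusted p = 0.0039) and in neurons at -1.85 (SE 0.59, adjusted p = 0.031). Its neuron values were 0.883 and 2.77 CPM in P-bodies against 5.85 and 7.50 CPM in cytoplasm, and the call ended without cytoplasm replicate 1 or 2 (adjusted p = 0.0967 and 0.234), as the HEK293T call did without P-body replicate 1 (adjusted p = 0.139). Neither was called with DESeq2 (DESeq2 adjusted p = 0.051 and 0.0813). With all human libraries in a fit, the HEK293T calls of CARS2, YARS2, TARS2, HARS2 and LARS2 ended (adjusted p between 0.0792 and 0.146).

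For 16 pairs of a cytosolic and a mitochondrial gene for the same amino acid, counting EPRS1 both with EARS2 and with PARS2, the cytosolic gene had the higher log2 difference in 12 pairs in HEK293T, 12 pairs in liver bud progenitors, 10 pairs in neurons and 9 pairs in mESC. In the same order, the median of cytosolic minus mitochondrial was 0.78, 0.28, 0.25 and 0.12 on the log2 scale. Opposite calls within a pair occurred 3 times in HEK293T. Among these, TARS1 was enriched and TARS2 depleted, with 27.6 and 23.6 CPM in P-bodies against 38.8 and 40.1 CPM in cytoplasm for TARS2 and a difference of -0.63 (SE 0.12, adjusted p = 8.4e-06). LARS1 and LARS2 were opposite in HEK293T and in liver bud progenitors, where LARS2 stood at 23.0 and 22.2 CPM in P-bodies against 31.1 and 35.7 CPM in cytoplasm and at 19.5 and 24.1 CPM in P-bodies against 27.2 and 29.6 CPM in cytoplasm, with differences of -0.56 (SE 0.13, adjusted p = 0.000137) and -0.38 (SE 0.15, adjusted p = 0.0327). The latter call ended with DESeq2 (DESeq2 adjusted p = 0.148), without P-body replicate 1 or cytoplasm replicate 2 (adjusted p = 0.342 and 0.131). In mESC the order was the reverse for tryptophan: Wars was depleted, with 48.6 and 49.99 CPM in P-bodies against 64.3 and 59.5 CPM in cytoplasm, and Wars2 enriched, with 49.7 and 48.8 CPM in P-bodies against 27.7 and 28.5 CPM in cytoplasm and a difference of 0.81 (SE 0.10, adjusted p = 2.14e-07).

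HARS1 and HARS2, for histidine, are neighbours read in opposite directions. Their exons share 86 bases in the human annotation and 195 in the mouse, so some reads could be given to either gene. Human HARS1 also shares 176 exon bases with DND1 on the same strand. HARS1 stood at 43.5 and 43.5 CPM in P-bodies against 35.7 and 42.2 CPM in cytoplasm in HEK293T and HARS2 at 10.01 and 10.2 CPM in P-bodies against 14.5 and 18.6 CPM in cytoplasm. Only HARS2 was called there, at -0.71 (SE 0.17, adjusted p = 0.000334). In mESC Hars2 was called the other way, at 8.46 and 8.86 CPM in P-bodies against 5.63 and 5.70 CPM in cytoplasm and 0.61 (SE 0.21, adjusted p = 0.0199), a call that ended with DESeq2 (DESeq2 adjusted p = 0.173) and without P-body replicate 1, P-body replicate 2 or cytoplasm replicate 1 (adjusted p = 0.0718, 0.092 and 0.0541).

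Mouse Lars2, the mitochondrial leucyl-tRNA synthetase, stood apart from every other mitochondrial member in level and in depletion. It held 693 and 669.9 CPM in the P-body libraries and 1731 and 2059 CPM in the cytoplasm libraries of mESC, with the cytoplasm high and no overlap, a difference of -1.48 (SE 0.053, adjusted p = 2.06e-17). Per kilobase of transcript its cytoplasm level was 487 CPM, 128 times the median of the other 16 mitochondrial enzymes, whose highest, Iars2, stood at 14.5 CPM per kilobase. Human LARS2 stood at 1.002, 1.44 and 1.23 times that median in HEK293T, liver bud progenitors and neurons.

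The annotated mouse Lars2 transcript (mm10, chr9:123366927-123462666, plus strand) holds a stretch of 396 bases, from position 3022 to 3417 of 3894 and after the stop codon, that was 98.7% identical to 28S ribosomal RNA. The comparison used the human 45S gene in the reference, and the match of another member, in a Cars2 transcript that is not coding, was 22 bases long. Beside this, the mouse ribosomal RNA gene Rn45s held 36473 and 35386 CPM in the P-body libraries and 83365 and 96512 CPM in the cytoplasm libraries, a difference of -1.32 (SE 0.041, adjusted p = 1.6e-18). In both genes the order of the 4 libraries was the same, with cytoplasm replicate 2 highest. The part of ribosomal RNA reads in the Lars2 values was not tested. Without Lars2, the summed mitochondrial level in mESC was 229 and 232 CPM in the P-body libraries and 226 and 252 CPM in the cytoplasm libraries, with overlap between the fractions, and the median difference of the other 16 was -0.13.

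**Figure D3:**
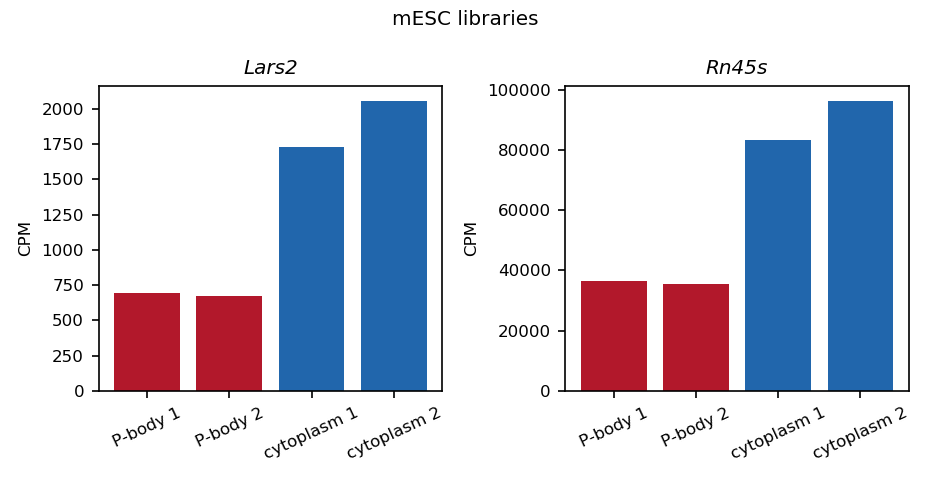
CPM of Lars2 (left) and of the ribosomal RNA gene Rn45s (right) in the 4 mESC libraries, as bars from 0 on separate axes, red for P-body and blue for cytoplasm. Both genes are lower in the P-body libraries, and both have their highest value in cytoplasm replicate 2.

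Across the human members, P-body enrichment went with few G or C bases at the third codon position (GC3), taken from the canonical coding sequence of GENCODE 44. Members enriched in HEK293T had a median GC3 of 40.9%, between 34.6% for AIMP1 and 48.3% for GARS1, and depleted members a median of 62.1%, up to 81.1% for FARSA. Members not called had a median of 62.3%, like the depleted ones, and all human protein-coding genes counted one of 60.4%. In liver bud progenitors the 15 enriched members ranged from 34.6% to 51.5%, and the 8 depleted ones from 56.6% to 81.1%, without overlap. In neurons the ranges were 36.5% to 48.3% and 45.2% to 81.1%, where IARS1, at 45.2%, was the depleted member with the least. IARS1, EPRS1 and IARS2 were among the exceptions in HEK293T, depleted at a GC3 of 45.2%, 36.6% and 40.2%. In mESC the medians were 56.3% for enriched and 60.2% for depleted members.

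As a description across genes, which are not independent replicates and share the libraries, Spearman's rho between GC3 and the log2 difference over the 41 members was -0.64 in HEK293T, -0.77 in liver bud progenitors and -0.54 in neurons, and -0.50 over the 40 mouse members. Over all protein-coding genes of at least 20 CPM on average it was, in the same order, -0.48, -0.65, -0.67 and -0.62. Within the 21 cytosolic enzymes rho was -0.61, -0.84 and -0.79 in the human cells. Within the 17 mitochondrial enzymes it was -0.40, -0.60 and -0.027. Mitochondrial and cytosolic enzymes had a similar median GC3, 57.7% and 55.3%. GC over the whole transcript had rho values of -0.71, -0.89, -0.63 and -0.71 over the members in HEK293T, liver bud progenitors, neurons and mESC. Each was stronger than that of GC3, so the third codon position is not singled out by these values. Over all protein-coding genes of at least 20 CPM on average, whole-transcript GC had -0.53, -0.75, -0.70 and -0.73. Transcript length had rho values, again in that order, of 0.028, 0.065, 0.024 and 0.058 with the difference over the members.

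**Figure D4:**
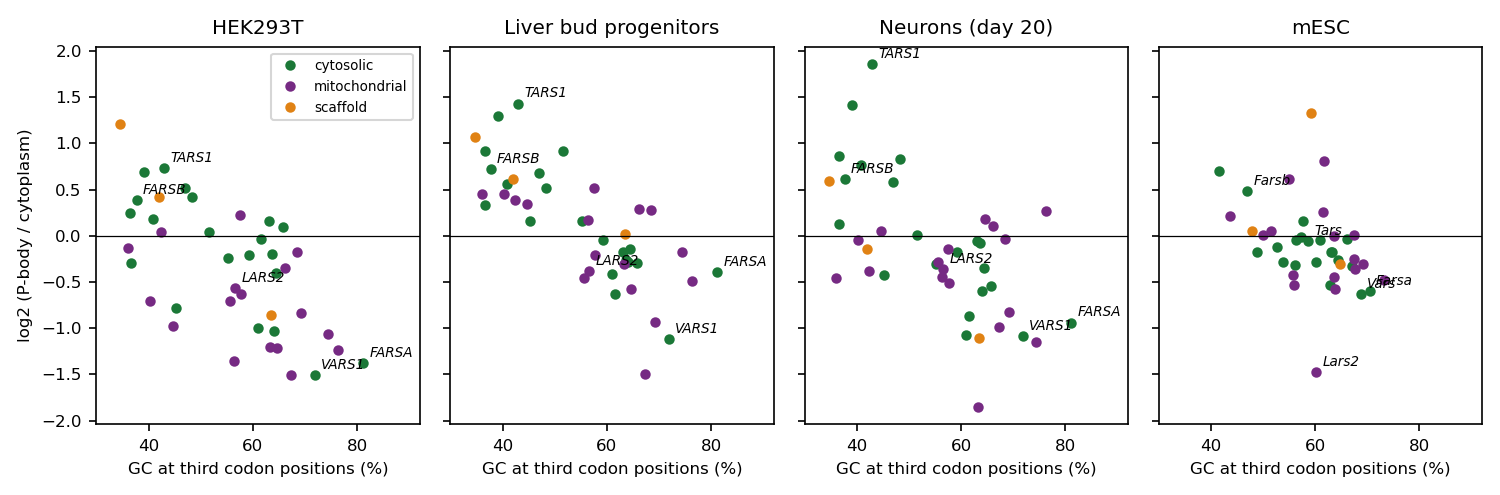
GC3 in percent (x axis) against the log2 difference between P-body and cytoplasm (y axis) for every member, in 4 cell types, coloured by compartment. In liver bud progenitors the points fall from upper left to lower right, FARSB and FARSA lie toward opposite ends, and mouse Lars2 lies below the other mESC points.

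The human and mouse orthologs differ in this composition. TARS1 had a GC3 of 43.0% in human and 58.7% in mouse, RARS1 39.1% and 53.8%, and AIMP1 34.6% and 48.0%. These 3 genes had the largest enrichments in HEK293T, and their mouse differences were -0.058, -0.28 and 0.052. As the highest in HEK293T, they would tend to be lower in other cells by that choice alone. FARSA went the other way, from 81.1% to 70.5%, with a difference of -1.38 in HEK293T and -0.60 in mESC. Several genes ran against this pattern, with a higher GC3 and also a higher difference in the mouse cells. Among them were EEF1E1 at 42.0% and 59.2%, IARS2 at 40.2% and 55.7%, IARS1 at 45.2% and 57.2%, and EPRS1 at 36.6% and 48.9%. Their differences in HEK293T and mESC were 0.42 and 1.33, -0.70 and -0.43, -0.78 and -0.017, and -0.30 and -0.18. Over 40 orthologs GC3 was higher in mouse in 26, and its SD was 12.8 percentage points in human and 7.55 in mouse. The change in GC3 and the change in log2 difference from HEK293T to mESC had a rho of -0.43. Both changes subtract the human values, which themselves had a rho of -0.64 over the members in HEK293T. This rho therefore cannot show a link particular to the orthologs. Both cell types were sequenced with random primers, while species and cell type cannot be told apart.

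The order of the members was alike among the cell types, as a description. Spearman's rho of the members' log2 differences was 0.76 between HEK293T and liver bud progenitors, 0.65 between HEK293T and neurons and 0.69 between liver bud progenitors and neurons (n = 41 genes), and 0.53, 0.53 and 0.47 of these human cells with mESC (n = 40). The same sign was seen for 29 of 41 members between HEK293T and liver bud progenitors and for 28 of 40 between neurons and mESC. No libraries are shared between these comparisons.

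An interaction over 8 libraries tested whether P-body enrichment in neurons differed from that in liver bud progenitors. Of the 41 members 0 were higher in neurons and 4 were lower, against 9.21% and 8.5% of all genes tested. The share of members that was lower lay near that of all genes. At an unadjusted p under 0.05, 2 members were higher and 7 lower, and DESeq2 called 0 higher and 3 lower. The 4 were IARS1, KARS1, MARS1 and the mitochondrial arginyl-tRNA synthetase RARS2, and 3 of them belong to the multisynthetase complex. KARS1 stood at 156 and 156 CPM in P-bodies against 136 and 143 CPM in cytoplasm in liver bud progenitors and at 137 and 139 CPM in P-bodies against 168 and 174 CPM in cytoplasm in neurons, so P-body was the high side in the former and the low side in the latter. RARS2 stood at 37.2 and 33.1 CPM in P-bodies against 29.1 and 22.6 CPM in cytoplasm and at 19.7 and 16.4 CPM in P-bodies against 23.0 and 26.5 CPM in cytoplasm, with the same turn. The levels of IARS1 and MARS1 are given above, and MARS1 was low in P-bodies of both.

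The difference of differences was -0.59 (SE 0.13, adjusted p = 0.00558) for IARS1, -0.48 (SE 0.12, adjusted p = 0.00956) for KARS1, -0.67 (SE 0.17, adjusted p = 0.0128) for MARS1 and -0.90 (SE 0.27, adjusted p = 0.0287) for RARS2. With library totals alone none of the 4 was called, at -0.24, -0.12, -0.31 and -0.55, and 3 other members were called higher in neurons. Without neuron P-body replicate 1 or 2 the count of lower members was 14 or 15, and without each of the 4 liver bud progenitor libraries in turn it was 2. TARS1 was more enriched in neurons by 0.42 (SE 0.15, adjusted p = 0.0607), which did not pass the adjustment. For VARS1 and RARS1 the differences were 0.024 (normal 95% interval from the SE, -0.59 to 0.64) and 0.11 (-0.24 to 0.45). With so few libraries such an interval is narrower than the test would give.

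**Figure D5:**
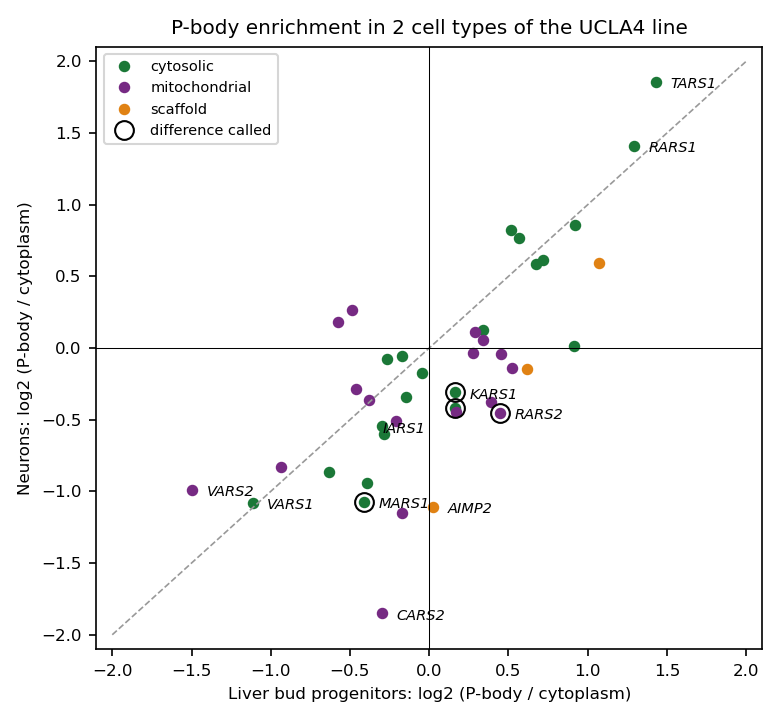
The log2 difference between P-body and cytoplasm in liver bud progenitors (x axis) and neurons (y axis) for 41 members, coloured by compartment, with the dashed line at equal values and rings on the 4 genes whose difference between the cell types was called. TARS1 and RARS1 lie at the upper right, VARS1 and VARS2 at the lower left, and the ringed genes below the dashed line.

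Genes around the synthetases were followed as lists. Beside the counts of each list, 19.3% of all genes tested were enriched and 22.8% depleted in HEK293T. The shares of all genes were 21.4% and 17.1% in liver bud progenitors, 14.6% and 14.1% in neurons, and 25.8% and 20.6% in mESC. The 10 factors that deliver charged tRNA and move the ribosome, among them EEF1A1, which carries aminoacyl-tRNA to the ribosome, were depleted in HEK293T in 10 of 10, with a median of -1.13. In neurons 6 and in mESC 7 were depleted, with none enriched in these 3 cell types by edgeR, by DESeq2 or at an unadjusted edgeR p under 0.05, while in liver bud progenitors 4 were enriched and 2 depleted. EEF1B2, which recharges EEF1A1 with GTP, stood at -2.36 (adjusted p = 5.7e-33) in HEK293T and 1.11 (adjusted p = 2.48e-17) in liver bud progenitors, and EEF1A1 at -1.66 (adjusted p = 4.68e-37) and 0.94 (adjusted p = 2.86e-31). EEF2, the translocase, was depleted in all 4 cell types, in the order HEK293T, liver bud progenitors, neurons and mESC at -1.27, -0.53, -1.24 and -0.49. 

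Of 11 partners of aminoacylation and proofreading, 2 were enriched and 6 depleted in HEK293T, 5 and 0 in liver bud progenitors, 0 and 1 in neurons, and 4 and 1 in mESC. At an unadjusted edgeR p under 0.05, 3 partners were enriched in neurons and 0 partners depleted in liver bud progenitors, and DESeq2 called none of either. The 3 subunits of the GatCAB amidotransferase, which makes mitochondrial glutaminyl-tRNA, were apart in HEK293T: QRSL1 at 0.63 (adjusted p = 2.81e-08), GATB at -1.01 (adjusted p = 5.07e-07) and GATC at -0.73 (adjusted p = 2.39e-09). Of 44 tRNA processing and modification genes 12 were enriched and 23 depleted in HEK293T, 16 and 3 in liver bud progenitors, 6 and 2 in neurons, and 13 and 6 in mESC. As shares, in that order, these were 27.3% and 52.3%, 36.4% and 6.82%, 13.6% and 4.55%, and 29.5% and 13.6%. The enriched shares in neurons and mESC lay near the 14.6% and 25.8% of all genes. TRMT10C, a subunit of mitochondrial RNase P, was enriched in all 4 cell types, in that order at 1.21, 1.16, 2.45 and 1.33, as was the La protein SSB, at 0.67, 1.13, 1.23 and 1.36. Of 14 genes of the amino acid response 8, 5, 4 and 6 were depleted in HEK293T, liver bud progenitors, neurons and mESC, and 2, 4, 0 and 1 enriched. None was enriched in neurons at an unadjusted edgeR p under 0.05 or by DESeq2 either. GCN1, which activates the uncharged-tRNA sensor EIF2AK4, was depleted in all 4, in that order at -1.62, -1.32, -1.20 and -0.79, whereas EIF2AK4 itself was enriched in HEK293T and liver bud progenitors, at 0.70 (adjusted p = 1.59e-10) and 0.52 (adjusted p = 3.1e-08).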

How the data were processed

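P-body and cytoplasm RNA had been sequenced in 16 libraries, and groups were taken from the labels. The deposited tables hold raw read counts by gene symbol (hg38 and mm10), in which the authors kept genes with at least 10 reads over a table. Per the study's methods, Snap seq reads were quantified with salmon in the nf-core pipeline on refGene annotation, and Smart-seq reads with featureCounts after hisat. The V4 Ultra polyA libraries are of the Smart-seq kind. The human counts of both chemistries were deposited together, however, so whether the pipeline changes with the library chemistry here is not known. Salmon divides reads among similar transcripts, which bears on Lars2 and overlapping genes. Further deposited tables hold the authors' own DESeq2 fold changes and p-values of P-body against cytoplasm and were not used.

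P-body and cytoplasm were compared in the 4 libraries of a cell type with edgeR 4.0.16 (glmQLFit, TMM, no covariate, genes at 0 in all compared libraries left out), and the interaction over 8 libraries. Calls had a Benjamini-Hochberg adjusted p under 0.05 over all genes, two-sided. The SE is the log2 difference divided by the root of the F statistic. CPM were computed here. Alternatives were DESeq2 1.42.0, RLE factors, library totals, filterByExpr, no further filter, the replicate number as a block, ribosomal RNA genes left out, all human libraries, and leaving out each library, where the lone library of a group is assumed to vary like the others. The steps were tested on simulated counts. GC3 and exon overlap came from GENCODE 44 and M21, and Lars2 was compared with the ribosomal RNA gene RNA45SN1 by blastn. Coordinates are of the same builds.

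Values in every library are given for the 3 members with the largest change each way per comparison at a mean of at least 20 CPM, the members reported here that were called alike in all 3 human cell types, opposite cytosolic and mitochondrial pairs, Lars2, HARS1 and HARS2. The genes printed as sequence were chosen after their values were seen. Some members enter the counts and medians but are not reported by name here. The members and lists were chosen with earlier results of these data known. With 2 libraries per group, p-values measure the spread between those libraries, and floors cover counting error only.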

Additional observations from a re-analysis of the deposited data

Results flagged for a closer look

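By the interaction test of edgeR, P-body enrichment was lower in neurons than in liver bud progenitors for 4 of 41 members. That share lay near the 8.5% of all genes tested. The log2 differences between the cell types were -0.59 for IARS1, -0.48 for KARS1, -0.67 for MARS1 and -0.90 for RARS2. Of these 4 calls, 0 held under every alternative.

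For 6 members the calls had opposite directions in different cell types, and these differences were not tested because species or library chemistry changes with the cell type. From HEK293T to liver bud progenitors the log2 difference between P-body and cytoplasm was higher by 0.63 for EPRS1, 0.94 for IARS1 and 1.16 for IARS2. From mESC to neurons it was higher by 1.14 for GARS1 and 1.69 for RARS1, and from HEK293T to mESC by 1.32 for HARS2. The IARS2 call in liver bud progenitors, at 0.45 (SE 0.11, adjusted p = 0.000349), was lost without cytoplasm replicate 2 (edgeR adjusted p = 0.159). Of the exon bases of mouse Iars2, which was depleted at -0.43 (SE 0.080, adjusted p = 0.000102), 30.5% lie across Rab3gap2 on the other strand.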

How the results depend on the processing

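Under the alternatives with a full set of libraries, 645 of 713 values of called members kept direction and call, 66 kept direction only and 2 reversed: IARS1 in liver bud progenitors (-0.022) and Nars in mESC (-0.24), both with library totals alone. Of 384 values with a library left out, 56 lost the call and 0 reversed. Calls held under every alternative for 19 of 31 members in HEK293T, 14 of 23 in liver bud progenitors, 10 of 15 in neurons, 11 of 19 in mESC and 0 of 4 in the interaction. The depleted count moved in HEK293T from 22 to 13 with all human libraries in a fit, in liver bud progenitors from 8 to 15 with library totals and 13 with filterByExpr, in neurons from 9 to 5 with DESeq2 and 16 with all human libraries, and in mESC from 13 to 28 with library totals, where the enriched count went from 6 to 3. In the interaction, members higher in neurons numbered 1 with RLE factors, 3 with library totals, 3 with filterByExpr and 1 with the replicate block, and members lower numbered 0 with library totals and 7 with all human libraries. With a library left out, the depleted count ran from 5 to 16 in neurons, and in the interaction the counts ran from 0 to 1 higher and from 2 to 15 lower. Over all genes, the count of enriched genes in mESC went from 4104 to 2591 with library totals, and that of depleted genes from 3271 to 6609 with library totals and 1803 with DESeq2. In neurons 3123 depleted genes became 4952 with all human libraries, and without cytoplasm replicate 1 the counts were 2109 enriched, from 3220, and 1892 depleted. In the interaction 2050 higher and 1892 lower genes became 3520 and 940 with library totals, and ran from 1193 to 2772 and from 1160 to 3628 with a library left out. The cause of these moves was not tested.

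The labels number replicates 1 and 2 in each fraction without saying that a number marks a shared culture, and the correlation of same-numbered libraries' deviations was 0.0955 in mESC, -0.0025 in neurons, 0.00203 in liver bud progenitors and -0.00838 in HEK293T. With the replicate block, 9 members were enriched and 22 depleted in HEK293T, 15 and 8 in liver bud progenitors, 6 and 11 in neurons, 6 and 13 in mESC, and 6 were lower in the interaction. In neurons YARS2 was counted 11 and 3 times in P-bodies and 8 and 13 times in cytoplasm, and a difference was not detectable at this depth.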
